A study of Mus musculus with 17 samples.

Results

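The 9 genes described here encode factors and receptors of vessel growth that cardiac fibroblasts (CFs) can make: *Vegfc*, *Figf* (also called *Vegfd*), *Pgf*, *Angpt1*, *Angptl1*, *Angptl2*, *Angptl4*, *Nrp1* and *Nrp2*. They were taken by name, 9 of the 31053 genes of the mouse count table. Poly-A RNA was measured by bulk MARS-seq, which counts reads at the 3′ ends of transcripts, in 17 libraries from 1 to 6 days post-infarction (dpi), with n = 3 at 1, 2, 4 and 6 dpi, n = 4 at 3 dpi and n = 1 at 5 dpi. The cells were *Col1a1*-GFP+/CD31-/CD45- CFs, sorted by flow cytometry from digested hearts. All mice were C57BL/6 of the genotype Collagen1a1-GFP+, 8 to 10 weeks old, and all had a myocardial infarction by ligation of the left anterior descending coronary artery. GFP was driven by *Col1a1* regulatory sequence, so cells that did not express it were not sampled. Uninjured hearts were not analysed here, so each level is compared between days after infarction. In bulk RNA, fewer cells of a type and less RNA per cell cannot be told apart, and RNA counts do not measure secretion.

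As background, the VEGF ligands act on receptor tyrosine kinases of endothelial cells: VEGF-C and VEGF-D (the product of *Figf*) bind the receptor encoded by *Flt4* and are known for lymphatic vessel growth, and placental growth factor (*Pgf*) binds the receptor encoded by *Flt1*. Angiopoietin 1 (*Angpt1*) activates the receptor encoded by *Tek* and stabilises vessels, whereas the angiopoietin-like proteins do not bind it; ANGPTL4 is best known as an inhibitor of lipoprotein lipase. The neuropilins (*Nrp1* and *Nrp2*) are membrane co-receptors for VEGF ligands and class 3 semaphorins, so these members of the group are receptors, although soluble forms are known.

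Total counts per library ranged from 8021815 to 22029938 (median 14123952). A count of 3, the limit used for an absent transcript, was then worth 0.136 to 0.374 CPM (counts per 1000000 counts of the library); this limit covers counting error only. All 9 genes had at least 10 counts in each of the 17 libraries, and the lowest count of any of them was 11, for *Angpt1*. Summed CPM of 8 fibroblast markers was 12200 to 38700 in every library, while 10 endothelial markers summed to 28.1 to 118 CPM. Sums reached 211 CPM for 10 leukocyte markers, 206 for 6 mural, 148 for 6 cardiomyocyte and 481 for 5 mesothelial markers. The pan-leukocyte gene *Ptprc* was at most 3.09 CPM, whereas the leukocyte marker *Lyz2* reached 138 CPM at 3 dpi. The libraries of 3 and 5 dpi had more Y-linked than *Xist* counts and those of 4 and 6 dpi the reverse, so a difference between these days and a difference of sex cannot be told apart. The 1 dpi libraries were mixed, 2 with more Y-linked counts and 1 (replicate 1) with more *Xist*, and all 3 of 2 dpi had more Y-linked counts. Replicate 1 of 1 dpi had 1670 *Xist* and 84 Y-linked counts and replicate 2 had 461 and 1455, so each held both. At 4 and 6 dpi Y-linked counts were at most 10, and at 3 and 5 dpi *Xist* counts were at most 2. Among all 17 libraries, 1 dpi replicate 1 had the lowest total, and 3 dpi replicate 2 lay far from the other 3 libraries of its day in *Pgf* and *Nrp1*. Results are given without these libraries where they change a call. The libraries are labelled as replicates of a day, and p-values measure only the spread between them. Those of 3 dpi carry another form of label than the libraries of all other days. Whether they were processed apart is not given in the sources used here. If they were, a difference between 3 dpi and another day could not be told apart from it.

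The promoter sequences of *Nrp2* (ENSMUSG00000025969) and *Angptl2* (ENSMUSG00000004105) are shown because these are the genes of the 9 that were called higher in a comparison of days. Both stretches are from RefSeq, build GRCm38.p6, on the plus strand, and capitals mark the GC box GGGCGG on either strand. The *Nrp2* stretch is chr1:62703067-62703284, which ends at the base before the annotated gene, and the *Angptl2* stretch is chr2:33215711-33215960, the 250 bases before the RefSeq start site.
Nrp2: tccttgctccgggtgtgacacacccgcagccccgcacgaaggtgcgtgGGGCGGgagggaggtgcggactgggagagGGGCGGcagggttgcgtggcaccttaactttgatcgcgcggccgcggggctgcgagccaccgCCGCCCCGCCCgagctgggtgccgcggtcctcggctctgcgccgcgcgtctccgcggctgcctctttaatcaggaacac
Angptl2: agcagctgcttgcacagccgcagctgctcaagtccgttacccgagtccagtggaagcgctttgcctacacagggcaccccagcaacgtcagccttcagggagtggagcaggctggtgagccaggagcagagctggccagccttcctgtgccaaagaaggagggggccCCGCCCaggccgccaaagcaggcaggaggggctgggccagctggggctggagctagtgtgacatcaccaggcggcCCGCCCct
Of the 9 genes, 7 matched an entry of the RefSeq promoter table, with 8 windows of 250 bases before a start site. In its window *Nrp2* had 5 GC boxes, of which 4 fall in the stretch printed, *Angptl2*, *Vegfc* and *Pgf* had 2 each, and *Nrp1* had 1; 32.7% of all 32851 promoters of that length held at least 1. None of the 8 windows held the core of the hypoxia response element (ACGTG, in 16.6% of all promoters) or an AP-1 site (TGANTCA, in 6.7%), and the TATA box TATAAA was found only for *Figf* (12.4% of all). All motifs were searched on both strands, and a match of letters is a description of the sequence only.

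Across the 6 days, 3 of the 9 genes changed: *Angptl4* (edgeR quasi-likelihood test, Benjamini-Hochberg adjusted p = 0.011), *Nrp2* (adjusted p = 0.014) and *Pgf* (adjusted p = 0.028). Of all 14030 genes tested, 15.0% changed by the same rule. Of the other 6 genes, *Vegfc* and *Angptl2* had unadjusted p-values of 0.0288 and 0.0319 and missed the threshold after adjustment. Within the 10 libraries where Y-linked counts exceeded *Xist*, which lack 4 and 6 dpi, 0 of the 9 passed in edgeR. An unadjusted p under 0.05 was found for 2 of them. The edgeR adjusted p was 0.54 for *Angptl4*, 0.076 for *Nrp2* and 0.53 for *Pgf*. The share of all genes called in this smaller fit is not given here, so the count of 0 has no background beside it.

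**Figure D1:**
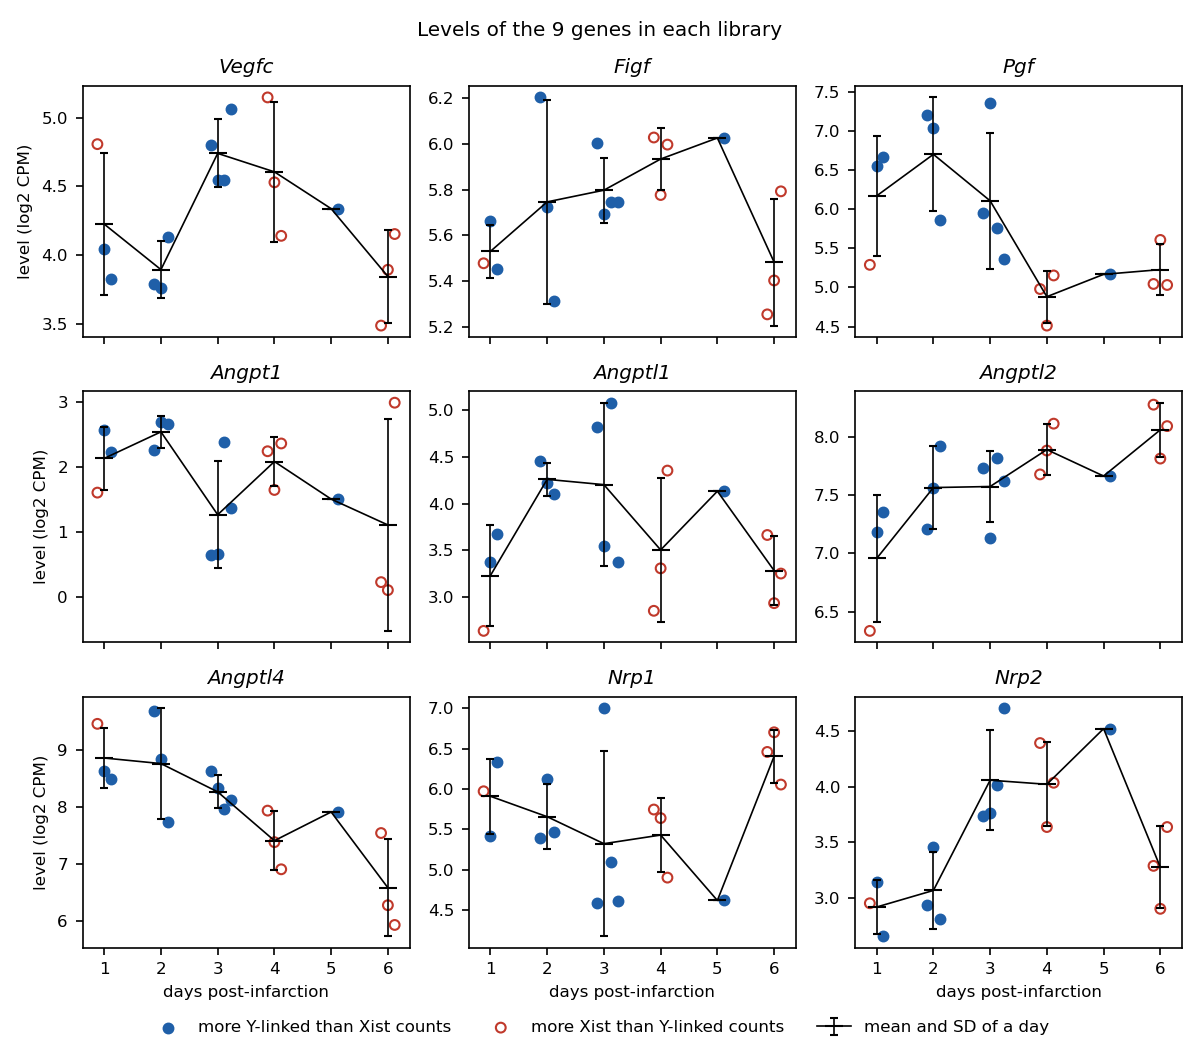
Level of each of the 9 genes (y axis, log2 CPM, scaled separately in each panel) by days post-infarction (x axis); points are libraries, filled where Y-linked counts exceed *Xist* counts and open otherwise, and dashes with bars are the mean and SD of a day (no SD at 5 dpi, n = 1). *Angptl4* was highest at 1 dpi and lowest at 6 dpi, *Angptl2* the reverse, *Pgf* was lowest at 4 dpi and *Nrp2* was higher from 3 to 5 dpi.

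Among the VEGF ligands, *Pgf* (ENSMUSG00000004791, GRCm38 chromosome 12, 85166635 to 85177790, minus strand) was higher over the first days. Its level was 39.0, 93.8 and 102.1 CPM in the libraries of 1 dpi, 147.3, 131.6 and 58.3 at 2 dpi and 61.7, 164.3, 54.2 and 41.1 at 3 dpi. At later days it was 31.4, 22.7 and 35.5 CPM at 4 dpi, 35.8 at 5 dpi and 32.9, 48.7 and 32.6 at 6 dpi. Every library of 4 dpi lay below every library of 1, 2 and 3 dpi. For 4 against 3 dpi alone this was so for 8.06% of all genes tested, and the share for all these days together is not given here. The range at 6 dpi overlapped with 1 and 3 dpi through 1 library, its replicate 2 at 48.7 CPM. The mean level fell from 6.71 ± 0.73 log2 CPM at 2 dpi (SD, n = 3) to 4.88 ± 0.33 at 4 dpi (SD, n = 3), a span of 3.54-fold.

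*Pgf* was 0.371-fold at 4 dpi relative to 3 dpi (log2 fold change -1.43, SE 0.44), which missed the threshold in edgeR (adjusted p = 0.088) and passed it in DESeq2 (-1.44, adjusted p = 0.02). The size of this step rested on 3 dpi replicate 2, at 164.3 CPM: without it the log2 fold change was -0.81 (edgeR adjusted p = 0.17). *Pgf* was also singled out after its values were seen for the mean of 3 to 5 dpi against that of 1 and 2 dpi, where its log2 fold change of -1.09 (SE 0.34) missed the threshold in edgeR with an adjusted p of 0.052 and passed it in DESeq2 (-1.07, adjusted p = 0.014). Here the same library acted the other way, and without it the value was -1.30 (edgeR adjusted p = 0.0025). The time course call was lost without any 1 of 5 libraries, replicates 1 and 2 of 2 dpi, replicates 1 and 2 of 4 dpi and replicate 1 of 6 dpi (edgeR adjusted p = 0.06 to 0.075).

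*Vegfc* (ENSMUSG00000031520, chromosome 8, 54077606 to 54187096, plus strand) was 13.7, 13.4 and 17.4 CPM at 2 dpi and 27.8, 23.2, 23.3 and 33.3 at 3 dpi. These 2 days did not overlap, as for 9.70% of all genes tested in this direction. The step did not pass the test (log2 fold change 0.85, SE 0.29, edgeR adjusted p = 0.11), and *Vegfc* was named here after its values were seen. The 1 dpi libraries, at 27.9, 16.4 and 14.1 CPM, spanned most of this range. From 35.3, 23.0 and 17.5 CPM at 4 dpi and 20.1 at 5 dpi it was 11.1, 14.7 and 17.7 at 6 dpi, and the range of 6 dpi overlapped with that of 4 dpi. *Vegfc* had the smallest p of the 9 in the comparison of 6 with 4 dpi, without passing (log2 fold change -0.80, SE 0.31, edgeR adjusted p = 0.17). Its span over days was 1.86-fold, from 3 to 6 dpi.

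*Figf* (ENSMUSG00000031380, chromosome X, 164373378 to 164402650, plus strand) varied least of the 9 genes between days, with a span of 1.46-fold from 5 to 6 dpi. It ranged from 38.0 to 73.5 CPM over the 17 libraries, and both ends of the order overlapped: 2 dpi alone covered 39.6 to 73.5 CPM. No comparison gave an adjusted p under 0.31 for it.

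*Angpt1* (ENSMUSG00000022309, chromosome 15, 42424723 to 42676977, minus strand) was near the low end of what these libraries can measure, at 0.94 to 7.84 CPM. At 6 dpi its levels were 1.03, 0.94 and 7.84 CPM, and its replicate 3 was the highest of the series while the other 2 libraries of that day were the lowest. The step from 2 dpi (4.66, 6.38 and 6.23 CPM) to 3 dpi (1.42, 1.45, 5.13 and 2.45) overlapped and did not pass (log2 fold change -1.13, SE 0.62, edgeR adjusted p = 0.35). Without 6 dpi replicate 3, *Angpt1* was called in the comparison of 6 with 4 dpi. Its exons overlap with *Gm17473* on the other strand, with no more than 15 counts per library, and whether the counting used strand is not given in the sources used here.

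Among the angiopoietin-like genes, *Angptl4* (ENSMUSG00000002289, chromosome 17, 33773750 to 33781830, minus strand) showed the widest span of the 9 genes, 4.84-fold. Its level was 703.3, 394.3 and 361 CPM at 1 dpi, 824.4, 461.3 and 214.3 at 2 dpi and 397.6, 322.5, 250.1 and 278.9 at 3 dpi. It was 244.7, 166.8 and 119.9 CPM at 4 dpi, 240.7 at 5 dpi and 186.3, 77.4 and 60.9 at 6 dpi. Every library of 4, 5 and 6 dpi lay below every library of 1 and 3 dpi, while 2 dpi reached down to 214.3 CPM in its replicate 3. Of all genes tested, 8.06% lay lower without overlap for 4 against 3 dpi and 15.3% for 6 against 1 dpi. The share for the whole grouping of 4, 5 and 6 against 1 and 3 dpi is not given here, so that grouping has no background beside it.

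At 6 dpi *Angptl4* was 0.223-fold of its level at 1 dpi (log2 fold change -2.17, SE 0.46, edgeR adjusted p = 0.0048). In this comparison 2 of the 9 genes were called, 1 in each direction, against 12.1% of all genes tested (6.91% higher and 5.21% lower). The fall of *Angptl4* held under every alternative run, with log2 fold changes of -2.81 to -1.82 and adjusted p-values up to 0.035. Of the 1 dpi libraries only replicate 1, with the lowest total and 703.3 CPM of *Angptl4*, had more *Xist* than Y-linked counts, as at 6 dpi. It also held Y-linked counts, and the part of sex in this fall was not tested. From 1 and 2 dpi to the mean of 3 to 5 dpi, chosen after its values were seen, *Angptl4* had a log2 fold change of -1.06 (SE 0.33), which missed the threshold in edgeR (adjusted p = 0.056) and passed it in DESeq2 (-1.05, adjusted p = 0.012).

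*Angptl2* (chromosome 2, 33216069 to 33247717, plus strand) moved the other way. It was 80.5, 144.9 and 163.3 CPM at 1 dpi, 148, 189 and 242.4 at 2 dpi, 212, 140.2, 225 and 196.4 at 3 dpi, 204.6, 235.9 and 276.9 at 4 dpi, 202.6 at 5 dpi and 310.1, 224.9 and 272.9 at 6 dpi. All libraries of 4, 5 and 6 dpi lay above all of 1 dpi. For 6 against 1 dpi alone, 17.1% of all genes tested lay above and 15.3% below without overlap. The share for 4, 5 and 6 dpi together is not given here. From 1 to 6 dpi it rose 2.08-fold (log2 fold change 1.05, SE 0.29, edgeR adjusted p = 0.021). The call depended on single libraries: it was 0.79 without 1 dpi replicate 1, whose level of 80.5 CPM was the lowest of the series (edgeR adjusted p = 0.12), and 0.94 without 6 dpi replicate 1, the highest (edgeR adjusted p = 0.093). Over 1 to 6 dpi, 5 of 6 cardiomyocyte markers also rose and their summed level went from 16.8 to 36.9 CPM at 1 dpi to 69.7 to 148 CPM at 6 dpi; 3 of 6 mural markers rose too, with sums of 40.4 to 84.3 and of 132 to 160 CPM. The part of these cells in the levels of *Angptl2* and *Angptl4* was not tested. The gene *Ralgps1* lies on the other strand across *Angptl2* without shared exons and had at most 46 counts.

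*Angptl1* (ENSMUSG00000033544, chromosome 1, 156838562 to 156861078, plus strand) was 6.08, 10.2 and 12.7 CPM at 1 dpi and 21.7, 18.5 and 17.03 at 2 dpi, with no overlap, as for 8.05% of all genes in that direction. It had the smallest p of the 9 in this comparison and did not pass (log2 fold change 0.97, SE 0.44, edgeR adjusted p = 0.62). At 3 dpi its libraries lay apart in pairs, at 28.0 and 33.7 CPM and at 11.5 and 10.2. At 6 dpi, with 12.5, 7.50 and 9.38 CPM, it was back within the range of 1 dpi (log2 fold change 0.01, SE 0.44, 6 against 1 dpi). *Ralgps2*, on the other strand and without shared exons in the annotation, had at most 82 counts. *Gm37802*, also on the other strand, does overlap with exons of *Angptl1* and is not among the genes of the count table.

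The receptors showed unlike courses. *Nrp2* (chromosome 1, 62703285 to 62818695, plus strand) was 7.597, 8.70 and 6.16 CPM at 1 dpi and 7.50, 10.8 and 6.87 at 2 dpi. It was 13.2, 13.4, 16.1 and 25.97 CPM at 3 dpi, 20.8, 12.3 and 16.2 at 4 dpi and 22.8 at 5 dpi. At 6 dpi it was 9.62, 7.33 and 12.3 CPM. All 8 libraries of 3 to 5 dpi lay above all 6 of 1 and 2 dpi, as for 1.70% of all genes tested in that direction, and the highest library of 6 dpi reached the lowest of 4 dpi.

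In the mean of 3, 4 and 5 dpi against that of 1 and 2 dpi, *Nrp2* was 2.34-fold higher (log2 fold change 1.23, SE 0.23, edgeR adjusted p = 0.0018). It was the only 1 of the 9 genes to pass, against 7.48% of all genes (5.25% higher). The median log2 fold change was 0.26 for the 9 genes and -0.001 for all genes tested. The call on *Nrp2* held in all 12 other settings and without each of the 17 libraries in turn, with log2 fold changes of 1.08 to 1.34 and adjusted p-values of 3.2e-05 to 0.017. Within the libraries where Y-linked counts exceeded *Xist*, which lack 4 dpi, its log2 fold change was 1.32 (edgeR adjusted p = 0.017). This value is for the mean of 3 and 5 dpi only, in which the single 5 dpi library weighs as much as 3 dpi. Leukocyte marker sums, given below, were highest on these days.

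Single steps of *Nrp2* between neighbouring days did not pass in edgeR. The step of *Nrp2* from 2 to 3 dpi was 1.03 on the log2 scale (SE 0.31, edgeR adjusted p = 0.076; DESeq2 1.04, adjusted p = 0.026), and without 3 dpi replicate 4, the highest of its day, it was 0.74 (edgeR adjusted p = 0.23). From 3 to 4 dpi the log2 fold change was -0.06 (SE 0.30). From 4 to 6 dpi the log2 fold change was -0.75 (SE 0.32, edgeR adjusted p = 0.21), and 6 dpi lay within 0.38 (SE 0.33) of 1 dpi.

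Markers of other cells moved in the same window. The summed level of 10 leukocyte markers was 9.43 to 32.2 CPM at 1 and 2 dpi, 40.7 to 211 at 3 dpi, 19.2 to 29.0 at 4 dpi, 63.1 at 5 dpi and 16.5 to 25.8 at 6 dpi, and 2 of 8 tested markers (*Lyz2* and *C1qa*) were called higher in the window. *Nrp2* was at 12.3 to 20.8 CPM at 4 dpi, where the leukocyte sums lay above 5 of the 6 libraries of 1 and 2 dpi and below the remaining one, 1 dpi replicate 1 at 32.2 CPM. Without 3 dpi replicates 3 and 4, which had the highest leukocyte sums, its log2 fold change was 1.09 (edgeR adjusted p = 0.0062); the other libraries of 3 and 5 dpi, with sums of 40.7, 47.3 and 63.1 CPM, still lay above all of 1 and 2 dpi. Within 3 dpi, replicates 3 and 4, with leukocyte sums of 192 and 211 CPM, also had the highest *Nrp2* levels, 16.1 and 25.97 CPM. Replicate 4 was the highest of all libraries in both. The part of leukocytes in the level of *Nrp2* was not tested. Mural markers (*Rgs5*, *Cspg4* and *Notch3*, 3 of 6) were called higher too. The sum of the 6 mural markers was highest in the 5 dpi library, at 206 CPM, where *Nrp2* was at 22.8 CPM. That sum was 132 to 160 CPM at 6 dpi, where *Nrp2* was at 7.33 to 12.3 CPM. The part of mural cells in the level of *Nrp2* was not tested.

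**Figure D2:**
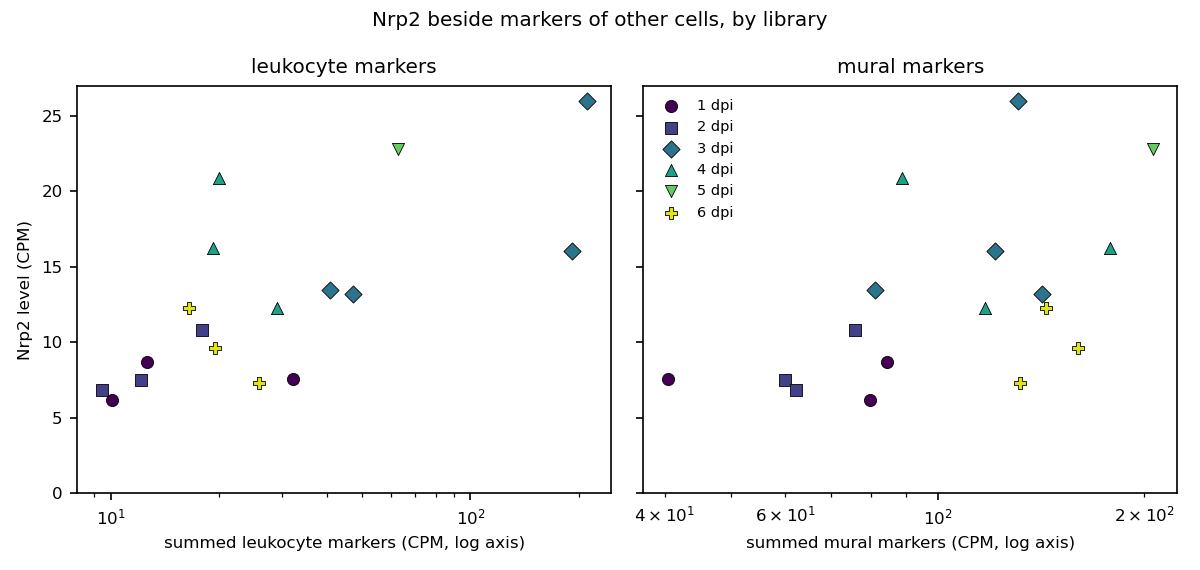
*Nrp2* level (y axis, CPM, from 0) against the summed level of 10 leukocyte markers (left) and 6 mural markers (right; x axes, CPM, log scale), 1 point per library, with colour and shape for the day. The 4 dpi libraries sit above all of 1 and 2 dpi in *Nrp2* at leukocyte sums of 19.2 to 29.0 CPM. The 6 dpi libraries are at 7.33 to 12.3 CPM of *Nrp2* with mural sums of 132 to 160 CPM. The highest *Nrp2* level, 25.97 CPM in 3 dpi replicate 4, is at the highest leukocyte sum, 211 CPM. The 5 dpi library, at 22.8 CPM of *Nrp2*, has the highest mural sum, 206 CPM.

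*Nrp1* (ENSMUSG00000025810, chromosome 8, 128358604 to 128503363, plus strand) was not called in any comparison. It was 62.7, 42.6 and 80.9 CPM at 1 dpi, 41.8, 69.4 and 44.0 at 2 dpi and 23.9, 128.2, 34.1 and 24.3 at 3 dpi. It was 53.6, 49.8 and 29.8 CPM at 4 dpi, 24.5 at 5 dpi and 87.9, 104.1 and 66.4 at 6 dpi. The libraries of 6 dpi lay above those of 4 dpi without overlap, as for 11.3% of all genes in that direction. The log2 fold change was 0.95 (SE 0.49, edgeR adjusted p = 0.28). *Mir1903* overlaps with exons of *Nrp1* on the same strand and is not among the genes of the count table.

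For *Nrp1*, 1 library decided a call. At 3 dpi, replicate 2 had 128.2 CPM, the highest level of the series, and the other 3 libraries of that day were at 23.9 to 34.1 CPM. With it, *Nrp1* in the mean of 3 to 5 dpi had a log2 fold change of -0.56 against 1 and 2 dpi (SE 0.35, edgeR adjusted p = 0.39), and without it -0.87 (edgeR adjusted p = 0.01). This value was singled out after it was seen. *Nrp2* in the same library was at 13.4 CPM, within the range of the other libraries of its day.

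**Figure D3:**
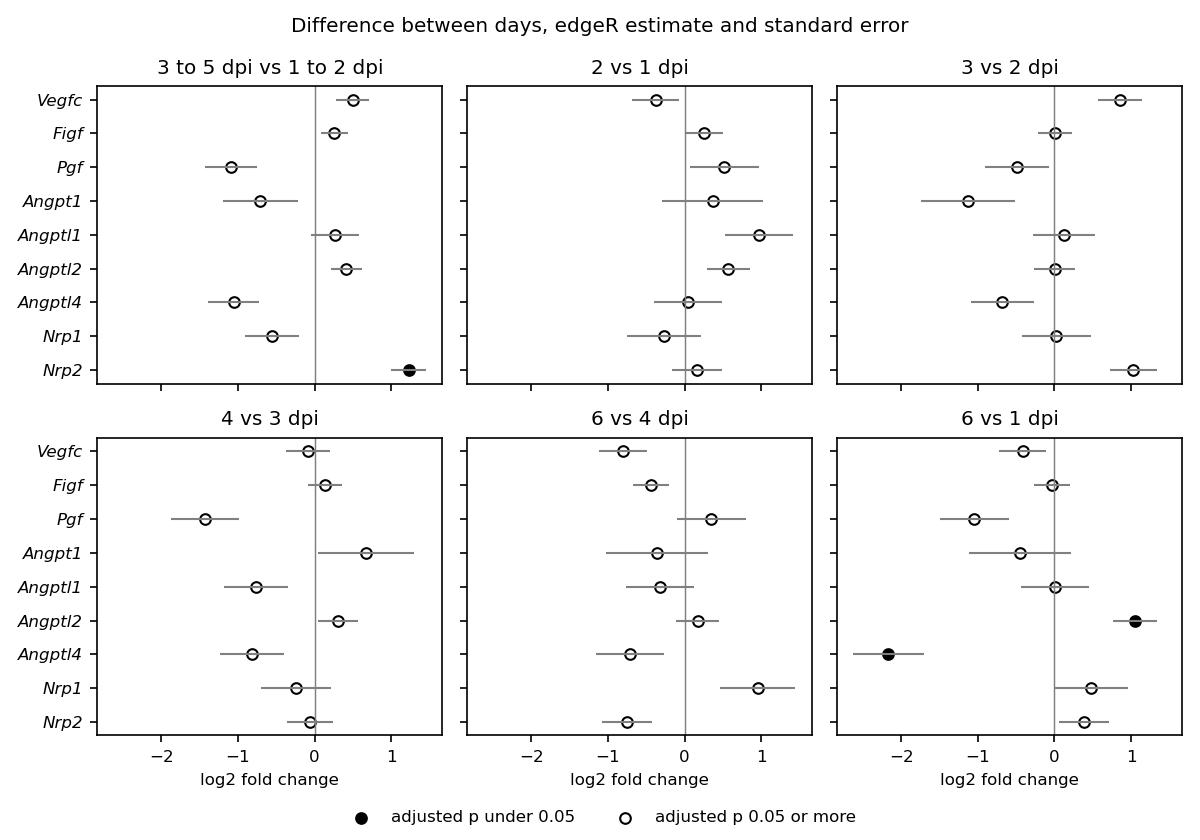
Log2 fold change of each of the 9 genes (x axis) in 6 comparisons of days, with bars for the standard error of the edgeR fit and filled points for an adjusted p under 0.05. *Nrp2* in the mean of 3 to 5 dpi, and *Angptl2* and *Angptl4* at 6 against 1 dpi, are the 3 filled points.

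In each of the other 4 comparisons, 0 of the 9 genes passed in edgeR. For 2 against 1 dpi, where 0.178% of all genes were called, 1 of the 9 had an unadjusted p under 0.05 and DESeq2 called 0. For 3 against 2 dpi (2.94% of all genes) these counts were 2 and 1 (*Nrp2*), and for 4 against 3 dpi (2.71%) they were 1 and 1 (*Pgf*). For 6 against 4 dpi (0.513%) they were 2 and 0. These percentages are of edgeR adjusted p-values only, and are no background for the other 2 counts. Over all genes, DESeq2 called 104, 1042, 879 and 807 in these 4 comparisons, in the order given. The share of all genes with an unadjusted p under 0.05 is not given here. The order of a gene's days was likewise loose: ranked by mean level, neighbouring days overlapped in their libraries for 4 or 5 of the 5 neighbouring pairs of every gene. The pairs that did not overlap were 5 and 4 dpi for *Pgf*, 4 and 5 dpi for *Angpt1* and *Angptl2* and 3 and 5 dpi for *Angptl4*, each of which involves the single library of 5 dpi.

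Other genes of the same pathways were counted by lists. Of 5 further VEGF ligands and receptors, *Vegfa*, the main ligand of vessel growth, was called lower at 4 against 3 dpi (log2 fold change -1.30, SE 0.33, edgeR adjusted p = 0.039) and at 6 against 1 dpi (-1.17, SE 0.34, adjusted p = 0.03). *Vegfb*, *Flt1*, *Kdr* and *Flt4* were called in none of the 7 comparisons by edgeR (0 of 28 tests, with 7 at an unadjusted p under 0.05), whereas DESeq2 called 5 of the 28, among them 3 for *Flt4*. Over all genes, the share called by edgeR ran from 0.178% to 15.0% between these 7 comparisons. By level, *Flt4*, the receptor for VEGF-C and VEGF-D, was at most 5.68 CPM in any library. Of 9 genes of VEGF-C and VEGF-D processing, *Adamts2*, a procollagen protease, rose in the mean of 3 to 5 dpi (0.78, SE 0.18, edgeR adjusted p = 0.0087) and at 6 against 1 dpi (1.25, SE 0.26, adjusted p = 0.0037). *Pcsk5*, a proprotein convertase, fell in the mean of 3 to 5 dpi (-1.13, SE 0.23, edgeR adjusted p = 0.0032). *Ccbe1* and *Adamts3*, which activate VEGF-C, did not pass in any comparison (edgeR adjusted p of 0.14 or more).

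None of the 5 genes of the angiopoietin and TIE list (*Angpt2*, *Angpt4*, *Tek*, *Tie1* and *Svep1*) was called in any of the 7 comparisons by edgeR (0 of 35 tests, with 9 at an unadjusted p under 0.05). DESeq2 called 6 of the 35, of which 3 were for *Tek*, 2 for *Svep1* and 1 for *Angpt4*. The edgeR share of all genes called was 0.178% to 15.0% between these 7 comparisons. *Tek* was at 10.9 to 45.5 CPM in the libraries of these CD31- cells. Of the other endothelial markers, *Tie1*, its partner in endothelial cells, reached 3.01 CPM and *Cdh5*, an endothelial cadherin, 5.59 CPM, both at 3 dpi. *Cldn5* reached 3.42, *Emcn* 4.51, *Kdr* 7.76, *Pecam1* 12.8, *Flt1* 16.2, *Esam* 22 and *Egfl7* 29.6 CPM. The source of the *Tek* counts was not tested. Of 6 tested genes of the ANGPTL and lipoprotein lipase list, *Angptl7* was higher at 6 against 1 dpi (1.83, SE 0.59, edgeR adjusted p = 0.048). Of 11 tested class 3 semaphorins and plexins, the partners of the neuropilins, *Plxnd1* (0.68, SE 0.20, edgeR adjusted p = 0.038) and *Plxna4* (1.10, SE 0.32, adjusted p = 0.043) rose in the mean of 3 to 5 dpi. *Plxnd1* was not high over the whole window. Its mean was 35.1 and 36.4 CPM at 1 and 2 dpi, 77.2 at 3 dpi, 39.8 at 4 dpi and 55.2 in the 5 dpi library. *Plxna4* (2.48, SE 0.47, edgeR adjusted p = 0.0021) and *Sema3b* (1.90, SE 0.35, adjusted p = 0.0019) were higher at 6 against 1 dpi, and *Sema3d* at 4 against 3 dpi (2.04, SE 0.40, adjusted p = 0.0096).

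A pair of lists of genes known to share regulators with *Angptl4* were counted beside it. Of 12 genes of the hypoxia response, 4 were lower at 6 against 1 dpi and none higher: the glucose transporter *Slc2a1* (-2.49, SE 0.41, edgeR adjusted p = 0.00066), the hexokinase *Hk2* (-1.78, SE 0.54, adjusted p = 0.038), *Pgk1* (-1.53, SE 0.38, adjusted p = 0.012) and *Ldha* (-1.34, SE 0.32, adjusted p = 0.011), which act in glycolysis. The median over the list was -0.36, against 0.03 over all genes tested. Of all genes tested, 5.21% were called lower and 6.91% higher at 6 against 1 dpi. Of 9 tested PPAR targets, only *Fabp4*, a fatty acid carrier, passed (-2.09, SE 0.65, edgeR adjusted p = 0.042), with a median of -0.39. Of 8 inhibitors of vessel growth, *Col18a1*, the source of endostatin (1.80, SE 0.27, edgeR adjusted p = 0.00027), and *Thbs2* (1.14, SE 0.33, adjusted p = 0.03) rose and *Thbs1* fell (-1.25, SE 0.33, adjusted p = 0.019) from 1 to 6 dpi. In the mean of 3 to 5 dpi *Col18a1* (0.97, SE 0.19, edgeR adjusted p = 0.0022) and *Cxcl10* (1.17, SE 0.29, adjusted p = 0.015) rose.

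**Figure D4:**
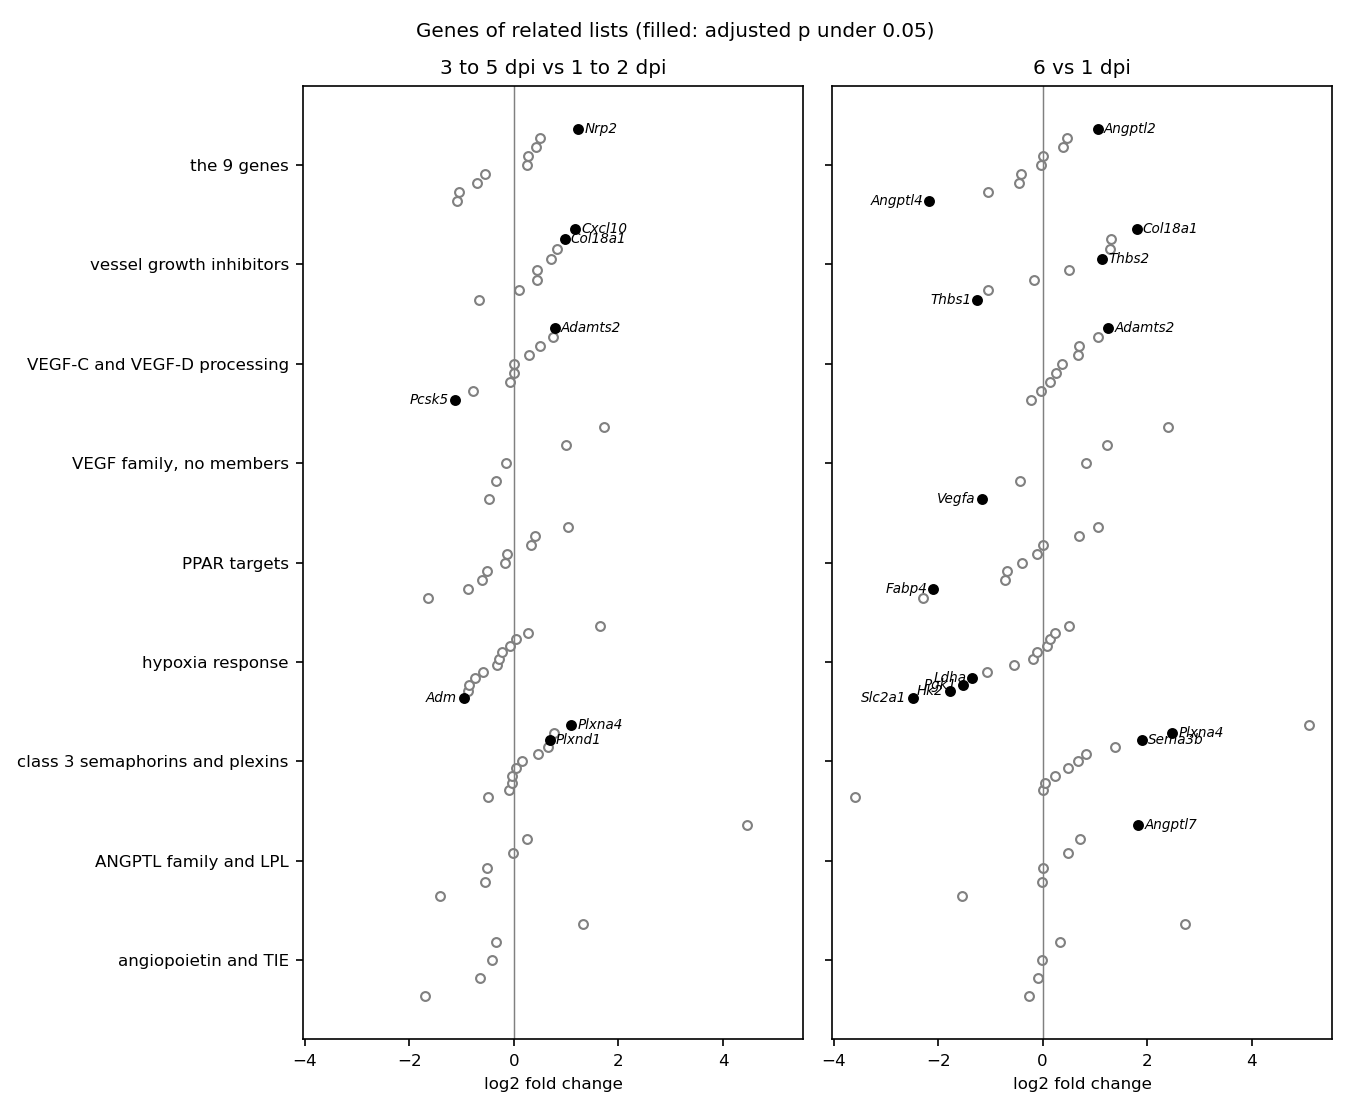
Log2 fold change (x axis) of the genes of 8 related lists and of the 9 genes (rows, 1 point per gene tested, spread in height for legibility) for the mean of 3 to 5 against 1 and 2 dpi (left) and for 6 against 1 dpi (right); filled points passed an edgeR adjusted p of 0.05. At 6 against 1 dpi *Angptl4* and 4 of 12 hypoxia genes lie to the left, and *Angptl2* and *Col18a1* to the right.

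The genes whose log2 CPM followed each of the 9 most closely over the 17 libraries, among 8918 genes with a mean of at least 100 counts, were named by Pearson's r as a description; the points share libraries, depth and day. They were *Samd4b* for *Nrp1* (r = 0.955), *6030408B16Rik* for *Pgf* (r = 0.936), *Rcsd1* for *Angptl2* (r = 0.928), *Cspp1* for *Angptl1* (r = 0.898), *Plekha3* for *Angptl4* (r = 0.877), *Rfc3* for *Vegfc* (r = 0.858), *Pdia5* for *Nrp2* (r = 0.855) and *Apobec3* for *Figf* (r = 0.804). *Angpt1*, with a mean of 60.2 counts, was not searched. None of the 9 was the closest gene of another.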

How the data were processed

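MARS-seq libraries of sorted CFs were analysed from 1 table of the whole series. The authors demultiplexed reads with bcl2fastq (1.2.4), aligned them with STAR to mm10 and made gene counts by featureCounts from an Ensembl GRCm38 annotation; the deposited values are raw counts. Whether PCR copies were collapsed is not given in the sources used here.

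In R (4.3.3), the 14030 genes that reached 10 counts in 3 or more libraries were normalized by TMM and tested by quasi-likelihood in edgeR (4.0.16), two-sided, with day as a factor of 6 levels over all 17 libraries, no replicate block, and a Benjamini-Hochberg adjusted p threshold of 0.05. Standard errors were taken as the log2 fold change over the square root of F. Levels were given as CPM of TMM-normalized library sizes, and log2 CPM has a prior count of 2; marker sums and levels of list genes are CPM of the total counts. The single 5 dpi library entered the fit and the mean of 3 to 5 dpi and was not tested alone; its title calls it replicate 3 and its description 1. Gene positions came from GENCODE vM21 (GRCm38), another annotation than the one counted on. Counts of 18 replicate pairs of a day differed by 21.8 to 212.6 chi-square per degree of freedom, so none was a duplicate. Same-numbered libraries did not deviate together (mean r 0.005 over 30 pairs). The test was checked on simulated counts. Python (3.11.15), pandas (2.3.3) and matplotlib (3.10.9) were used for tables and figures.

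Alternatives were DESeq2 (1.42.0), 2 other normalizations, 2 other count filters, the replicate block, fewer days or libraries, and each library left out. Every one of the 9 genes was named by rule, with tests for those called or with the smallest p; members and lists were chosen with earlier results of these data known, and 2 alternatives were added after the data were seen.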

Additional observations from a re-analysis of the deposited data

How the results depend on the processing

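In 327 log2 fold changes of single genes under alternatives, 0 changed direction. These covered only pairs of gene and comparison that were called, had the smallest p or were singled out after their values were seen. Pairs near 0, such as *Figf* for 3 against 2 dpi (log2 fold change 0.01), were not checked in this way. On days with replicates, all mean levels moved by less than 1 SD under both other scalings. For log2 DESeq2-normalized counts, which lie on another scale, this holds after the mean offset of each gene between the scales was removed. The levels of 5 dpi (n = 1) have no SD to compare with. The counts of called genes moved more. The time course count of 3 became 5 with every gene of at least 1 count, 0 where only libraries with Y-linked above *Xist* counts were used and 5 without 1 dpi replicate 1 and 3 dpi replicate 2; it was 2 to 4 with 1 library left out. For 3 to 5 against 1 and 2 dpi, the count of 1 became 3 with DESeq2 and with every gene of at least 1 count, 2 with only the days compared, without 5 dpi or without 3 dpi, and 4 (*Nrp2*, *Vegfc*, *Nrp1* and *Pgf*) without the pair of libraries above. It was 1 to 4 with 1 library left out, and 4 came without 3 dpi replicate 2, which added *Nrp1*, *Pgf* and *Angptl4*. For 3 against 2 dpi, the count of 0 became 1 with DESeq2 and 2 (*Nrp2* and *Pgf*) without that pair, and was 0 to 1 with 1 library left out. For 4 against 3 dpi it became 1 with DESeq2, with every gene of at least 1 count, and without 3 dpi replicates 3 and 4 (*Pgf*, log2 fold change -1.95, edgeR adjusted p = 0.035). For 6 against 4 dpi it became 1 (*Nrp1*) with every gene of at least 1 count and was 0 to 1 with 1 library left out, 1 (*Angpt1*) without 6 dpi replicate 3. For 6 against 1 dpi the count of 2 was 1 to 3. The cause of these moves was not tested. Over all genes DESeq2 called 3757 in the time course against 2099, 1555 against 1050 in the window, 104 against 25 (2 against 1 dpi), 1042 against 412 (3 against 2 dpi), 879 against 380 (4 against 3 dpi), 807 against 72 (6 against 4 dpi) and 2427 against 1700 (6 against 1 dpi). The libraries share only a replicate number; with it as a block the window called 2 of the 9 genes, *Nrp2* and *Angptl4*, and 174 of all genes instead of 412 for 3 against 2 dpi, 243 instead of 380 for 4 against 3 dpi and 28 instead of 72 for 6 against 4 dpi. Within libraries with more Y-linked counts, 4 and 6 dpi could not be fitted. Depth limits *Angpt1* most, with as few as 11 counts.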

Other observations

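The genes most like each of the 9 in level over the 17 libraries also included *Plscr1*, which was close to both *Figf* (Pearson's r = 0.783) and *Nrp2* (r = 0.845), the metallothionein *Mt2* for *Angptl4* (r = 0.87), *Fndc1* for *Angptl2* (r = 0.871) and the cathepsin *Ctsh* for *Nrp2* (r = 0.844). Between pairs of the 9 genes, r over the 17 libraries ranged from -0.741 (*Angptl2* and *Angptl4*) to 0.624 (*Vegfc* and *Nrp2*), and the neuropilins had r = -0.533 with each other. These are descriptions over points that share day and depth. Summed markers of further cell types, in CPM, were 1.57 to 12.3 for lymphatic endothelium, 22.7 to 481 for mesothelium and 4.47 to 17 for Schwann cells over all libraries, and their part in the levels of the 9 genes was not tested.

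Among the lists counted, *Adm*, a vasodilator peptide of the hypoxia list, fell in the mean of 3 to 5 dpi (log2 fold change -0.96, SE 0.28, edgeR adjusted p = 0.042). From 3 to 4 dpi *Thbs2* rose (1.14, SE 0.30, edgeR adjusted p = 0.048) and *Cnmd*, which encodes chondromodulin, fell (-2.57, SE 0.65, adjusted p = 0.04). From 2 to 3 dpi *Plxnd1* rose (1.07, SE 0.26, edgeR adjusted p = 0.033) and *Pcsk5* fell (-1.13, SE 0.28, adjusted p = 0.034). At 3 dpi, the only day with 4 libraries, none of the 9 genes had a library whose gap to the next one exceeded Dixon's 95% limit as a share of the range, and the nearest to it were *Figf* (0.825) and *Nrp1* (0.787).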
